A study of Homo sapiens with 18 samples.

Results

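Polycomb repressive complex 1 (PRC1) is described here by 9 of its subunit genes, out of 55765 genes in the deposited table. The 9 were taken by name: the ubiquitin ligases RNF2 and RING1, the PCGF proteins BMI1 and PCGF2, the chromodomain proteins CBX2, CBX6, CBX7 and CBX8, and the polyhomeotic protein PHC1. The study measured polyadenylated RNA in G401, a malignant rhabdoid tumour cell line, in 18 libraries. There were 6 groups of 3 biological replicates. The control line, called WT in the labels, kept RB1 and had been edited at the safe harbour locus AAVS1. The other lines, E1 and F2, were 2 clones in which both RB1 alleles had been disrupted with CRISPR/Cas9. Each line received 10 µM tazemetostat, an inhibitor of the methyltransferase EZH2, or an equal volume of DMSO for 11 days. The RB1-intact genotype is a single line and the RB1-null genotype 2 clones, WT's origin as a clone or a pool is not stated, and nothing in the labels says how the replicate cultures were separated, so p-values measure the spread between these replicates.

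PRC1 attaches ubiquitin to histone H2A, a mark of silenced genes. RNF2 or RING1 supplies the ligase activity and pairs with a PCGF protein, which helps set the type of complex. Canonical complexes hold BMI1 or PCGF2, a polyhomeotic subunit and a CBX protein whose chromodomain binds the trimethylated histone H3 that EZH2 produces. Variant complexes hold RYBP or YAF2 in place of a CBX protein, with another PCGF protein or with BMI1 or PCGF2. In rhabdoid tumours the loss of SMARCB1, a SWI/SNF chromatin remodelling subunit, leaves Polycomb complexes less opposed, which is the background for treating them with an EZH2 inhibitor.

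Levels are the authors' normalized read counts. A gene is said to rise or fall where limma's adjusted p was under 0.05 over 16154 tested genes. Changes are on the scale of log2(value + 1), with the standard error, over 3 libraries a group. BMI1 fell by more than 2-fold with tazemetostat in all 3 lines. CBX2 and CBX7 fell in all 3 lines by less, and RNF2 rose in all 3. Both clones parted from WT over PHC1, CBX6 and RING1. In WT PHC1 and RING1 fell and CBX6 rose, whereas in the clones PHC1 rose and neither CBX6 nor RING1 passed the test. For RING1 the difference in response was lost when most single libraries were left out. CBX8 also rose in WT alone, but its response did not differ past the test in either clone. The fall of CBX2 was smaller in E1 than in WT, and that of BMI1 larger in F2 than in WT. The CBX2 difference in F2 and the BMI1 difference in E1 did not pass in limma. Outside the 9, the variant subunit PCGF5 rose from near silence to at least 2531 normalized counts in each line.

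RNA libraries held 25709489 to 39314860 reads, and the size factors that scale them lay between 0.812 and 1.14. RB1 was 2694 ± 132 in WT DMSO, and between 648 and 977 in the group means of the clones. SMARCB1 had 0 reads in all 18 libraries and VIM, a mesenchymal gene, ranged from 27409.6 to 69993. In normalized counts, the leukocyte genes PTPRC and CD3E ranged from 0 to 1.85 and 0 to 1.93, the epithelial genes CDH1 and EPCAM from 8.04 to 422 and 0.942 to 19.5, and the endothelial gene CDH5 from 0 to 28.3. The other endothelial gene listed, PECAM1, is not described here.

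Promoters are shown for BMI1, with the largest change of the 9, and PCGF5, with the largest rise among the other PRC1 genes listed. They are shown for their CG content, since CpG-rich starts are the class of promoter on which Polycomb complexes are known to act. Each is the 250 bases before a RefSeq transcription start in GRCh38.p14, written 5′ to 3′, with CG dinucleotides in capitals. The BMI1 window is at chr10:22320849-22321098, plus strand, and the PCGF5 window at chr10:91162762-91163011, plus strand.
BMI1: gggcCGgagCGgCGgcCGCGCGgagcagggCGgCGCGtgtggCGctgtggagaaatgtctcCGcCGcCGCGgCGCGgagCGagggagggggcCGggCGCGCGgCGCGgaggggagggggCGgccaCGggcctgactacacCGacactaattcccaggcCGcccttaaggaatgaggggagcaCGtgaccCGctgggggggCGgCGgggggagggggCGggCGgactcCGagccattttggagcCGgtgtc
PCGF5: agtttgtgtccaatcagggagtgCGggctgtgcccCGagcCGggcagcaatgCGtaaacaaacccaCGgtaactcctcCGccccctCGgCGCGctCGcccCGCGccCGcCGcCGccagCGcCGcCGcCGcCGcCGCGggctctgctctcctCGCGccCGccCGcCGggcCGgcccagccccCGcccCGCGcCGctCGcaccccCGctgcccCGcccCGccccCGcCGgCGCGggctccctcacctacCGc
The 300-base RefSeq windows around these starts, which run 50 bases past them, held 36 CG dinucleotides for BMI1 and 55 for PCGF5, against a median of 14 over 35116 windows of all genes. PCGF5 had 3 other windows, with 52, 35 and 5, the last below that median, and which start these cells used was not measured. Of the 9 genes, 7 had such windows, 9 in number; CBX2 and CBX8 had no entry. Their CG counts ran from 2 at PCGF2 to 65 at the other BMI1 start.

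Those windows were also searched on both strands for TTCCCGC and TTGGCGC, which resemble E2F sites, and for TTTGAA, the cell cycle homology element. They occur in 6.55%, 3.04% and 15.2% of all 35116 windows. RNF2 held TTCCCGC with its first base at -111 from the start, and PHC1 held TTTGAA at 36 in 1 of its 2 windows. No other window of the 7 genes held any of these letters, which says nothing about binding there. Of the 4 PCGF5 windows, that with 5 CG dinucleotides held TTTGAA, at -139 and -60.

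RNF2, also called RING1B, is the more studied catalytic subunit, and it rose with tazemetostat in all 3 lines. In WT it stood at 1625, 1494 and 1464 in DMSO and 1900.0, 1935 and 1727 in tazemetostat (log2 change 0.28 ± 0.08, adjusted p = 0.00448). E1 went from 1745, 1773 and 1819 to 2081, 2396 and 2357 (0.35 ± 0.08, adjusted p = 0.00101). In both lines every treated library was above every DMSO library. F2 had 1967, 1636 and 1591 in DMSO and 1955, 2031 and 1985 in tazemetostat (0.21 ± 0.08, adjusted p = 0.033), and there 1 DMSO library overlapped the treated ones. The F2 call was lost with no filter on low genes (adjusted p = 0.0582), with only the F2 libraries fitted (0.0527), and without DMSO replicate 2 or 3 or any single tazemetostat library, with adjusted p between 0.0544 and 0.153. With every library scaled to the same total, the WT change was 0.13 (adjusted p = 0.0992).

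RING1, the paralogous ligase, fell in WT but did not pass the test in either clone. In WT the DMSO libraries held 1186, 1147 and 1191 and the tazemetostat libraries 993, 1016 and 1005 (log2 change -0.23 ± 0.06, adjusted p = 0.00351), with no overlap. In E1 the values were 1238, 1321 and 1152 in DMSO and 1289, 1178 and 1267 in tazemetostat (95% interval of the change -0.12 to 0.14). In F2 they were 1311, 1439 and 1345, then 1402, 1385 and 1387 when treated (-0.10 to 0.16). The clones' treated libraries lay inside or beside their own DMSO range. The ratio of RNF2 to RING1, each per kilobase of exon, went from 0.580 ± 0.0315 to 0.824 ± 0.0492 (SD, n = 3) in WT, from 0.644 ± 0.0541 to 0.820 ± 0.0940 in E1 and from 0.568 ± 0.0882 to 0.639 ± 0.0160 in F2. RING1 thus had the more abundant transcript per length in every group, although RNF2 had the higher mean count in each. The order rests on exon lengths of 1818 bases for RING1 and 4073 for RNF2. No other length was tried for this pair.

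BMI1, also called PCGF4 and known for repressing the cell cycle inhibitor locus CDKN2A, had the largest change of the 9. In WT the DMSO libraries held 13219.8, 12661 and 12149 and the tazemetostat libraries 6221, 5918 and 5508. E1 held 10645, 10686 and 12872, then 3879, 4560.0 and 4435 when treated. F2 held 12288, 10939 and 10469.7, then 3831, 3874 and 3826. No treated library came near a DMSO library in any line. In bulk RNA, fewer cells that express a gene and less of its RNA per cell cannot be told apart. The log2 change was -1.11 ± 0.08 in WT (a 2.16-fold fall, adjusted p = 8.21e-10), -1.41 ± 0.08 in E1 (2.65-fold, 3.08e-11) and -1.54 ± 0.08 in F2 (2.92-fold, 6.55e-12). These 3 calls held in every alternative run. The readthrough gene COMMD3-BMI1 shares 1000 exon bases, 23.3% of the BMI1 exons, and had 0 reads in all 18 libraries. How reads in shared bases were assigned is not given in the sources used here. The 0 therefore does not show that readthrough RNA was absent. COMMD3, the neighbouring gene on the same strand and named here after its values were seen, fell by 0.52, 1.13 and 1.52 on the log2 scale in WT, E1 and F2 (adjusted p = 0.000206, 1.81e-08 and 1.93e-10).

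PCGF2, also called MEL18 and the closest paralog of BMI1, did not pass the test in any line. Its 18 libraries ranged from 2562 to 3675. The 95% intervals of its log2 change were -0.10 to 0.22 (WT), -0.08 to 0.23 (E1) and -0.30 to 0.02 (F2), so a 2-fold change lay outside each. Its exons share 1148 bases with CISD3 on the opposite strand, which averaged 385, and the counting mode for strand is not given in the sources used here. With BMI1 down and PCGF2 near its level in DMSO, the ratio of BMI1 to PCGF2 per kilobase of exon went from 3.69 ± 0.300 to 1.64 ± 0.126 (SD, n = 3) in WT, from 3.30 ± 0.725 to 1.17 ± 0.184 in E1 and from 2.66 ± 0.368 to 1.000 ± 0.0273 in F2. The transcripts of the 2 genes were then about equal per length in treated F2.

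**Figure D1:**
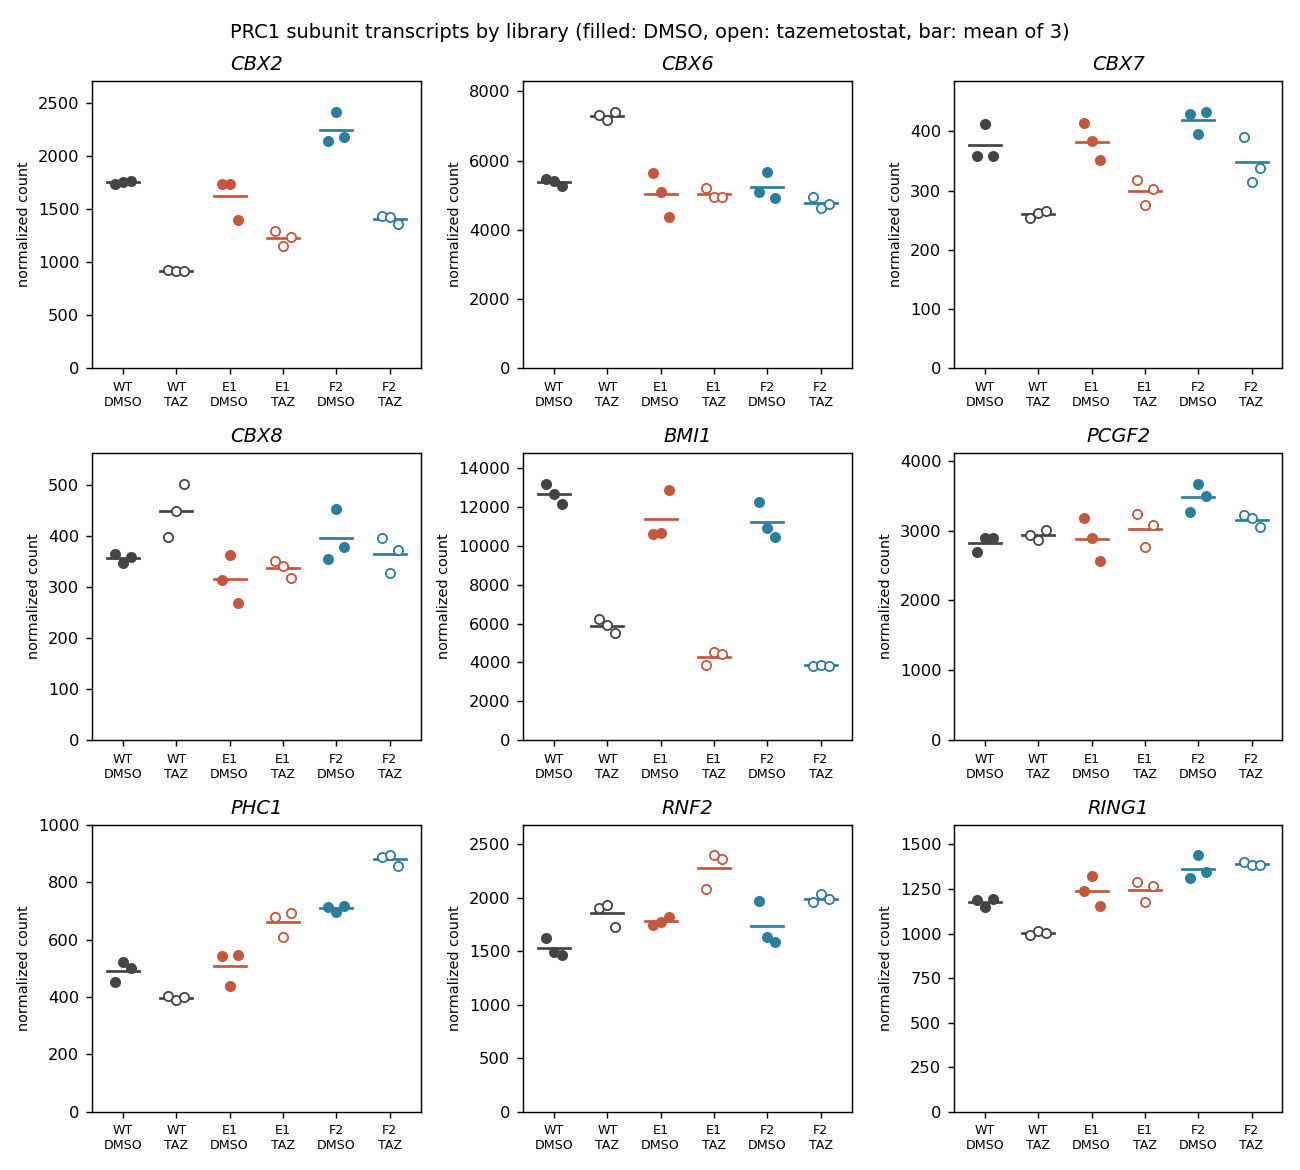
Normalized count of each of the 9 PRC1 genes (vertical axis, from 0) in the 18 libraries by group (horizontal axis); filled points are DMSO, open points tazemetostat, and bars the mean of 3. BMI1 and CBX2 drop in every line, whereas CBX6 is high in treated WT alone, at 7308, 7174 and 7409.8.

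The other 4 PCGF genes mark variant complexes and were listed with 29 further PRC1 subunits and partners. PCGF5 was nearly silent in DMSO, at 30.6, 44.3 and 35.0 in WT, 31.3, 44.4 and 42.9 in E1 and 34.8, 32.2 and 31.5 in F2. With tazemetostat it reached 3196, 3069 and 2823 (WT), 2531, 2877 and 2835 (E1) and 3323, 3429 and 3568 (F2), with every treated library far above every DMSO library. The log2 changes were 6.35 ± 0.13, 6.10 ± 0.13 and 6.67 ± 0.13 (adjusted p = 1.11e-17, 1.8e-17 and 4.74e-18). Neither clone's response differed from that of WT past the test (adjusted p = 0.32 and 0.22). PCGF3 rose in all 3 lines, by 0.52, 0.41 and 0.18, and PCGF6 fell by 0.97, 0.36 and 0.50. The PCGF3 call in F2 was lost without DMSO replicate 1 (adjusted p = 0.051), and the PCGF6 call in E1 without DMSO replicate 3 (0.0634) or tazemetostat replicate 1 (0.0899). PCGF1 fell in F2 (log2 change -0.35 ± 0.09, adjusted p = 0.00423) and did not pass in WT or E1.

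Summed per kilobase of exon, the 6 PCGF transcripts changed in make-up. BMI1 was 66.2 ± 1.07% of the sum in WT DMSO and 42.4 ± 1.03% (SD, n = 3) in WT tazemetostat. In E1 its share went from 63.4 ± 3.53% to 34.0 ± 1.88%, and in F2 from 60.6 ± 2.20% to 31.9 ± 0.314%. PCGF5 took 11.3 ± 0.326%, 11.2 ± 0.433% and 14.7 ± 0.573% in treated WT, E1 and F2, from 0.0915% to 0.113% in DMSO. The PCGF2 share, on average 23.0% or less in each DMSO group, was 25.9 ± 1.43%, 29.4 ± 3.07% and 31.9 ± 0.839% in the treated lines. These shares carry no test; the treated and DMSO libraries of a line did not overlap in the BMI1 share.

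**Figure D2:**
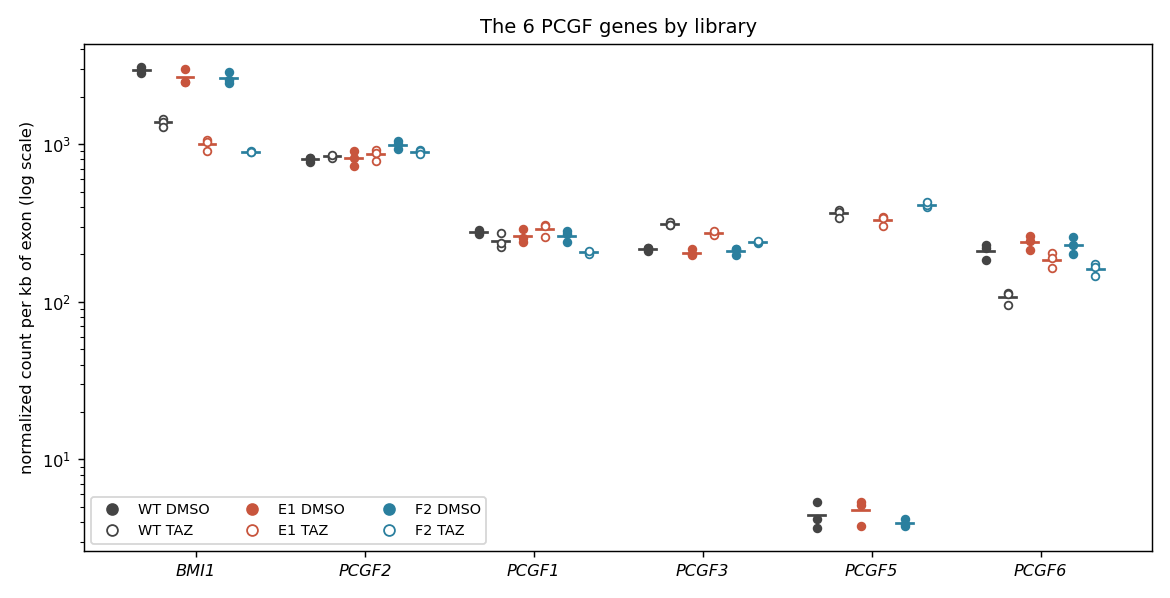
Normalized count per kilobase of exon (vertical log axis) for the 6 PCGF genes (horizontal axis) in each library; filled points are DMSO, open points tazemetostat, and bars the mean of 3. PCGF5 moves from the lowest of the family to a mean level above PCGF1, PCGF3 and PCGF6 in treated cells of all 3 lines, and BMI1 comes down towards PCGF2. With the length of the longest coding transcript, PCGF1 is above PCGF5 in treated E1.

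CBX2, the chromodomain subunit best known for sex determination and for compacting chromatin, fell in all 3 lines. In WT it went from 1736, 1749 and 1763 to 921, 913 and 910.1 (log2 change -0.93 ± 0.08, adjusted p = 3.96e-09). E1 held 1736, 1729.9 and 1393 in DMSO and 1294, 1149.9 and 1232 in tazemetostat (-0.40 ± 0.08, 0.0003). F2 held 2137, 2414 and 2172, then 1435, 1422 and 1359.7 when treated (-0.67 ± 0.08, 5.11e-07). DMSO and treated libraries did not overlap in any line, and treated WT was the lowest of the 6 groups.

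CBX7, which represses CDKN2A in other systems, had the least abundant transcript of the 4 CBX members per kilobase of exon. With the length of the longest coding transcript, CBX7 exceeded CBX8 in E1 DMSO, at 6.99% against 6.17% of the 4. Its libraries held 359, 413 and 359 in WT DMSO and 254, 263 and 265 in WT tazemetostat (log2 change -0.53 ± 0.10, adjusted p = 0.000132). It fell by 0.36 in E1 (adjusted p = 0.00613) and by 0.28 in F2 (0.0257), again with no overlap between treated and DMSO libraries. The F2 call was lost without DMSO replicate 1 (0.0736) or 3 (0.073) and without tazemetostat replicate 2 (0.133) or 3 (0.0734). An antisense gene, AL031846.2 in GENCODE, overlaps 17.9% of the CBX7 exons and was not analysed here.

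CBX6, with the most abundant transcript of the 4 CBX members per length, rose in WT and did not pass the test in the clones. WT held 5473, 5415 and 5276 in DMSO and 7308, 7174 and 7409.8 in tazemetostat (log2 change 0.44 ± 0.07, adjusted p = 5.17e-05). The E1 values were 5648, 5079.7 and 4359 in DMSO and 5221, 4936 and 4938 when treated (95% interval -0.15 to 0.17). F2 had 5095, 5666 and 4929 in DMSO, then 4957, 4625 and 4754 (-0.29 to 0.03). The treated WT libraries were the 3 highest of all 18. CBX8, found with BMI1 in canonical complexes, ranged from 269 to 502 over the 18 libraries. It rose in WT alone among the 3 tests, from 364, 348 and 358 to 398, 448 and 502 (0.33 ± 0.12, adjusted p = 0.023). That call was lost without WT DMSO replicate 2 (0.0627), without WT tazemetostat replicate 2 (0.0516) or 3 (0.115), and with equal totals (0.214).

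As shares of the 4 CBX members' transcripts per kilobase of exon, CBX2 went from 27.6 ± 0.497% to 13.3 ± 0.308% (SD, n = 3) with tazemetostat in WT. In E1 its share went from 27.4 ± 0.772% to 22.4 ± 0.667%, and in F2 from 32.9 ± 0.396% to 25.3 ± 0.940%. CBX6 was the largest share in every group, 54.4% in F2 DMSO to 74.95% in WT tazemetostat, and had a higher mean share in tazemetostat than in DMSO in each line. CBX8 held 7.68 ± 0.200% in WT DMSO and 8.90 ± 0.896% in WT tazemetostat, and CBX7 held 4.53 ± 0.354% and 2.88 ± 0.0560%. These shares are a description and were not tested.

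**Figure D3:**
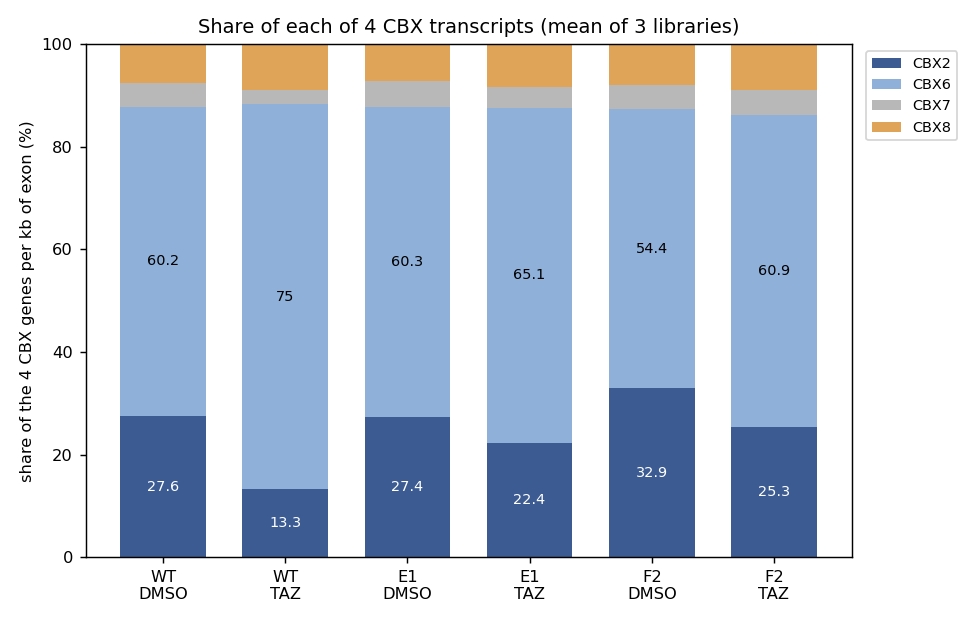
Mean share (vertical axis, %) of each of 4 CBX transcripts per kilobase of exon in the 6 groups (horizontal axis), over 3 libraries each. With tazemetostat the CBX2 band narrows, to 13.3% in WT, and the CBX6 band widens.

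PHC1, 1 of the 3 polyhomeotic subunits through which PRC1 complexes cluster, moved in opposite directions in WT and in the clones. WT held 451, 520.2 and 502 in DMSO and 404, 391 and 399 in tazemetostat (log2 change -0.30 ± 0.09, adjusted p = 0.0055). E1 held 544, 437 and 545, then 679, 607 and 692 when treated (0.38 ± 0.09, 0.00135). F2 held 715, 697 and 717, then 888, 893 and 857 (0.31 ± 0.09, 0.00571). The treated libraries lay wholly below their DMSO libraries in WT and wholly above them in both clones. Of the 3 PHC transcripts per kilobase of exon, PHC1 was 15.9 ± 0.424% and then 12.5 ± 0.246% (SD, n = 3) in WT, 17.1 ± 1.71% and 20.1 ± 1.14% in E1, and 20.2 ± 0.535% and 22.6 ± 0.262% in F2. PHC2 and PHC3 did not pass the test with tazemetostat in any line.

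Genes that could share reads with PHC1 were checked. M6PR overlaps 18.1% of the PHC1 exons on the opposite strand and averaged 7439 normalized counts. It rose in all 3 lines, by 0.70, 0.42 and 0.52, whereas PHC1 fell in WT and rose in E1 and F2. Whether M6PR reads entered the PHC1 counts was not tested. The pseudogene PHC1P1 ranged from 54.6 to 143; it rose by 0.67 in E1 and 0.44 in F2 (adjusted p = 0.00348 and 0.0398) and did not pass in WT. The split of reads between PHC1 and this copy is uncertain. All 3 genes were counted as the authors deposited them.

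Counted over the 9 genes, 8 passed the test with tazemetostat in WT (3 rose and 5 fell), where 64.2% of all tested genes did. In E1 5 passed (2 rose and 3 fell), against 46.8% of all genes, and in F2 also 5 (2 and 3), against 52.2%. The F2 count was 3 without DMSO replicate 3 or without tazemetostat replicate 2 or 3. With a 2-fold limit added, BMI1 alone remained in each line, where 21.3%, 15.1% and 17% of all genes did. The median log2 changes of the 9 were -0.23 (WT), 0.01 (E1) and -0.13 (F2), beside 0.03, 0.02 and 0.02 over all tested genes. The 10 proliferation markers of a separate list, such as MKI67 and CCNA2, all fell in WT, with a median of -1.32. Their summed level was 79002 to 85621 in the DMSO libraries and 29748 to 34043 in the treated libraries there. The sums in E1 were 86492 to 89488 in DMSO and 76627 to 86426 when treated, and those in F2 98148 to 103126 and 87452 to 90994. In E1 1 of the 10 rose and 3 fell, and in F2 1 rose and 6 fell. The markers' part in the PRC1 changes was not tested.

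**Figure D4:**
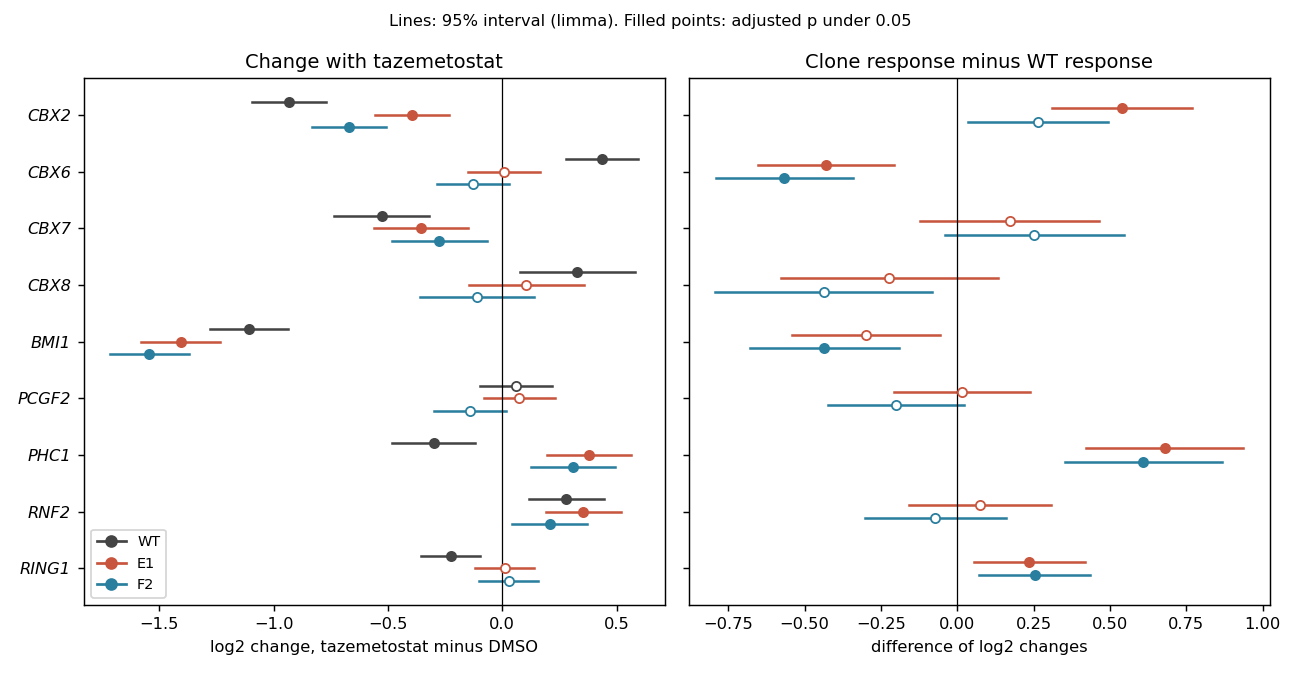
Left, log2 change of each of the 9 genes with tazemetostat in WT, E1 and F2; right, the clone's change minus that of WT (horizontal axes, log2). Points are limma estimates, lines 95% intervals and filled points adjusted p under 0.05: PHC1 lies left of 0 in WT and right of 0 in both clones, and BMI1 is the farthest left in every line.

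Whether the clones responded differently from WT was tested as the difference of log2 changes, clone minus WT. Both comparisons use the same 6 WT libraries. PHC1 gave 0.68 ± 0.12 in E1 (adjusted p = 0.0003) and 0.61 ± 0.12 in F2 (0.0011). CBX6 gave -0.43 ± 0.11 in E1 (0.00411) and -0.57 ± 0.11 in F2 (0.000599). These 4 calls held in every alternative run. For RING1 the differences were 0.24 ± 0.09 (0.0411) and 0.25 ± 0.09 (0.0362). RING1's calls were the frailest of these. Leaving out any 1 of 10 of the 12 libraries ended the E1 call, with adjusted p from 0.0519 to 0.0854, and the F2 call was likewise lost for 10 of 12, with 0.0556 to 0.0871. Only E1 DMSO replicate 2 and E1 tazemetostat replicate 2, and for F2 WT DMSO replicate 2 and F2 DMSO replicate 2, could be left out with the call kept.

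CBX2 fell less in E1 than in WT (0.54 ± 0.11, adjusted p = 0.000839); in F2 the difference was 0.26 ± 0.11 (0.0825). BMI1 fell further in F2 than in WT (-0.44 ± 0.12, adjusted p = 0.00904), and in E1 the difference was -0.30 ± 0.12 (0.0523). That E1 difference passed with edgeR (adjusted p = 0.0411), DESeq2 (0.0374), TMM factors (0.04) and 6 other alternatives, so that DESeq2 called 5 of 9 for E1. In limma 4 of 9 passed for E1, where 35.4% of all genes did, and 4 of 9 for F2, against 26.9%. No member passed with a 2-fold limit, where 10% and 7.48% of all genes did. Between the clones' own responses 0 of 9 passed in limma, edgeR's quasi-likelihood test or DESeq2, against 14.8% of all genes in limma (5.81% with the 2-fold limit), and 1, CBX2, had an unadjusted p under 0.05. The proliferation markers differed in the same contrasts, all 10 being higher in clone minus WT in E1 and in F2, and their part was not tested.

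In DMSO E1 differed from WT in RNF2 alone, 1779 ± 37.2 against 1527 ± 85.5 (SD, n = 3; log2 difference 0.22 ± 0.08, adjusted p = 0.0486). That is 1 of 9, against 23.2% of all genes, and the call was lost without any single library but WT DMSO replicate 1 (adjusted p 0.0744 to 0.157). F2 was higher than WT in PHC1 (0.53 ± 0.09, adjusted p = 0.00023), CBX2 (0.35 ± 0.08, 0.00293), PCGF2 (0.30 ± 0.07, 0.00777) and RING1 (0.22 ± 0.06, 0.0183), 4 of 9 against 20.2% of all genes. None was past 2-fold, where 5.04% of all genes were in E1 and 2.98% in F2. The RING1 call was lost without WT DMSO replicate 2 (0.0776) or F2 DMSO replicate 2 (0.0962). Of the 10 proliferation markers, 5 were also higher in F2 than in WT in DMSO.

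Under tazemetostat the clones and WT differed in 7 of the 9 genes each, where 51.8% (E1) and 53.1% (F2) of all genes did. PHC1 was 398 ± 6.60 in treated WT, 659 ± 45.5 in treated E1 and 879.7 ± 19.4 in treated F2 (SD, n = 3). The log2 difference of 1.14 ± 0.09 in F2 (adjusted p = 4.3e-09) was the single one past 2-fold, where 12.3% of all genes were; in E1, at 0.72 ± 0.09, none was, against 11.3%. CBX2 (0.42 in E1 and 0.62 in F2) and RING1 (0.31 and 0.47) were also higher in both clones. BMI1 (-0.46 and -0.61), CBX6 (-0.54 and -0.61) and CBX8 (-0.41 and -0.30) were lower in both. Their adjusted p-values lay at or below 0.0447, that of CBX8 in F2. The CBX8 call in F2 was lost without tazemetostat replicate 2 or 3 of WT or of F2 (adjusted p 0.075 to 0.186) and with equal totals (0.313). RNF2 was higher in E1 (0.30, 0.004) and CBX7 in F2 (0.41, 0.00196). All 10 proliferation markers were also higher in both treated clones than in treated WT.

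The clones also differed from each other. In DMSO E1 was lower than F2 in PHC1 (-0.49 ± 0.09, adjusted p = 0.000217), CBX2 (-0.47 ± 0.08, 8.92e-05), PCGF2 (-0.28 ± 0.07, 0.00659) and CBX8 (-0.33 ± 0.12, 0.0367), 4 of 9 against 37.1% of all genes. CBX8 overlapped between the groups, and its call was lost without E1 replicate 1 or 3 or F2 replicate 2 or 3 (adjusted p 0.0534 to 0.182). In tazemetostat E1 was lower in PHC1 (-0.42 ± 0.09, 0.00114) and RING1 (-0.16 ± 0.06, 0.0488), 2 of 9 against 34.5%. Leaving out any 1 of the 6 libraries but E1 replicate 1 ended the RING1 call (adjusted p 0.0779 to 0.202). Without E1 replicate 1, 5 of the 9 passed. No member was 2-fold apart in either, where 7.56% and 6.82% of all genes were.

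Placed in order of group mean, BMI1 ran from treated F2 (3844 ± 26.2) through treated E1 (4291 ± 363) and treated WT (5882 ± 358) to the 3 DMSO groups, whose libraries overlapped. Its highest group mean was 3.3 times its lowest. PHC1 ran from treated WT (398 ± 6.60) to treated F2 (879.7 ± 19.4), a 2.21-fold span, with only WT DMSO and E1 DMSO overlapping among neighbours. CBX2 spanned 2.45-fold, from treated WT to F2 DMSO, and overlapped only between treated F2 and E1 DMSO. The narrowest span was that of PCGF2, at 1.23-fold, where F2 DMSO alone stood clear of its neighbour. For CBX8 all neighbouring groups overlapped, and for CBX6 all but treated WT.

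Of the 33 other PRC1 subunits and partners listed, 32 were tested; SCML1 was too low. With tazemetostat 8 rose and 14 fell in WT, 9 rose and 9 fell in E1, and 7 rose and 10 fell in F2. Of all genes tested, 64.2%, 46.8% and 52.2% were called in the same 3 comparisons. The list's median log2 changes were -0.13, 0.07 and -0.04, where those of all genes were 0.0259, 0.0246 and 0.0208. Besides PCGF5, the genes past 2-fold in some tazemetostat test were SCMH1, CBX3 and AUTS2. SCMH1, a Sex comb on midleg homolog, fell by 1.07, 0.85 and 0.80 in the 3 lines, in the order WT, E1, F2 (adjusted p = 7.71e-11, 3.04e-09 and 7.08e-09). CBX3, a heterochromatin protein found in a variant complex, fell by 1.13, 0.42 and 0.77 (6.1e-09, 0.00124 and 1.35e-06). AUTS2, a partner of PCGF5 complexes, was low throughout. It held 13.1, 8.48 and 13.2 in WT DMSO and 38.4, 37.4 and 39.4 in WT tazemetostat (log2 change 1.67, adjusted p = 0.0026). It also rose in E1 (1.96, 0.00103), while F2 held 6.15, 16.6 and 19.4 in DMSO and 9.71, 19.2 and 10.2 in tazemetostat.

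Enzymes that take ubiquitin off H2A were listed as well, BAP1, USP16 and MYSM1, together with partners such as the ASXL proteins, FOXK1, HCFC1 and OGT. Enzymes and partners came to 13 genes, with ASXL3 too low to test. In WT 2 rose and 2 fell with tazemetostat, in E1 2 rose and none fell, and in F2 none rose and 1 fell, out of 12 tested. Of all genes 64.2%, 46.8% and 52.2% were called. None of the 12 was past 2-fold in these tests, where 21.3%, 15.1% and 17% of all genes were.

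Across the 18 libraries, the genes outside the 9 most like each member were ranked by Pearson's r of log2(value + 1), as a description; the libraries fall into the same 6 groups, so any gene with the same group pattern ranks high. BMI1 had the closest matches, RBPJ (0.99), FECH (0.99) and TMEM57 (0.99). PHC1 was followed by MDC1 (0.97), ODF2 (0.96) and NDE1 (0.95), and CBX2 by UBXN11 (0.98), KLHDC9 (0.97) and FUZ (0.97). For RING1 they were C9orf37 (0.96), DAZAP1 (0.96) and KIFC1 (0.96). CBX6 was matched by BCR (0.97), UBE2O (0.95) and DEXI (0.95), CBX7 by TMEM39B (0.95), FBLN1 (0.93) and KLHDC3 (0.93), and RNF2 by DNAJC21 (0.94), CAAP1 (0.93) and NTAN1 (0.92). CBX8 (RAB3IL1 0.89, NDUFA3 0.88, MAP3K10 0.87) and PCGF2 (TNK2 0.88, TMEM8B 0.85, FRS3 0.85) had the loosest matches.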

How the data were processed

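Poly(A) RNA libraries (TruSeq Stranded kit, paired reads) were made from 18 samples. Per the submitters' processing notes, the tools were Trim Galore 0.4.4, STAR 2.6.0a, HTSeq and DESeq2 with genome build hg19; the annotation and strand setting are not given in the sources used here. The deposited signal values are gene counts that the authors divided by a size factor. Whole reads were recovered from 100% of values (relative tolerance 1e-06). limma 3.58.1 (R 4.3.3) was fitted to log2(value + 1) of genes with a mean of at least 10, with 6 group means and no block, and p-values were adjusted by Benjamini-Hochberg within each of 12 contrasts. edgeR 4.0.16 and DESeq2 1.42.0 on recovered reads, other scalings, filters and pseudocounts, a replicate block and each left-out library were alternatives.

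Exon lengths and overlaps came from GENCODE 29. Members and lists were chosen with earlier results of these data known. Named genes are the members, RB1, listed genes past 2-fold, and 3 like genes a member; PCGF1, PCGF3, PCGF6, COMMD3, M6PR, PHC1P1, CISD3, PHC2 and PHC3 were named after their values were seen. Same-numbered F2 and WT libraries deviated together in DMSO (r 0.11 to 0.38 over 3 pairs), and there the block changed no call.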

Additional observations from a re-analysis of the deposited data

Results flagged for a closer look

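Each clone's response to tazemetostat was compared with that of WT by limma's test of the difference of log2 changes (clone minus WT). Of all tested genes 35.4% passed for E1 and 26.9% for F2. Among the 9 genes 4 passed in each clone, 8 cases over both. In E1 these were PHC1 (0.68), CBX2 (0.54), RING1 (0.24) and CBX6 (-0.43). In F2 they were PHC1 (0.61), RING1 (0.25), CBX6 (-0.57) and BMI1 (-0.44). PHC1, RING1 and CBX6 passed against the same WT libraries in both clones. PHC1 alone of the 9 fell in WT and rose in both clones.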

How the results depend on the processing

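Of 1890 alternative values for the 9 genes, 1738 kept their direction and side of the threshold, 78 were no longer past it, 31 newly passed and 43 changed sign. With a 2-fold limit the members called with tazemetostat were 1 in each line, 1 for F2 against WT in tazemetostat, and 0 in each other comparison. Leaving out 1 library gave 3 to 4 calls with tazemetostat in F2, 0 to 1 for E1 against WT in DMSO and 1 to 5 for E1 against F2 in tazemetostat. E1 against WT in DMSO gave 0 with no filter, with the replicate block and with only its own groups. E1 against F2 in tazemetostat gave 1 with pseudocount 5, no filter, the replicate block or edgeR, and 4 with equal totals. Fitting only the groups compared gave 7 for the F2 response difference and 2 for E1 against F2 in DMSO, and also ended the calls of CBX7 (adjusted p = 0.0536) and PCGF6 (0.0523) with tazemetostat in E1, RNF2 in F2 (0.0527), RING1 in the E1 response difference (0.087) and RING1 for E1 against F2 in tazemetostat (0.0546). No filter ended the calls of RNF2 with tazemetostat in F2 (0.0582), CBX8 for F2 against WT in tazemetostat (0.0675), RING1 in both response differences (0.0828 in E1, 0.0735 in F2) and CBX8 for E1 against F2 in DMSO (0.0593). edgeR ended that of RING1 in the E1 response difference (0.0548) and, with TMM factors as well, CBX8 for F2 against WT in tazemetostat (0.0501 and 0.0593). The cause was not tested.

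The changes of sign were all of values not past the threshold. With equal totals, which shift the median of all genes by -0.15 in the WT test, 0.15 for F2 against WT in tazemetostat and 0.12 in the F2 response difference, values became -0.0924 (PCGF2, WT), -0.0572 (CBX6, E1), -0.0551 (RING1, E1), 0.0518 (RNF2, F2 response), -0.0265 (BMI1) and -2.4e-05 (RNF2) for E1 against F2 in DMSO, and -0.00856 (CBX6) in tazemetostat. CBX6 in E1 gave -0.00129 with TMM factors, -0.0101 with edgeR and -0.00271 with DESeq2, and RING1 in E1 -0.00143 with edgeR. Ranges over left-out libraries that crossed 0 were, with tazemetostat in E1, -0.0907 to 0.0961 (CBX6), -0.00314 to 0.21 (CBX8), -0.00579 to 0.15 (PCGF2) and -0.0395 to 0.0587 (RING1); for AUTS2 in F2, -0.50 to 0.26; for E1 against WT in DMSO, -0.0343 to 0.0899 (CBX7), -0.0524 to 0.10 (PCGF2) and -0.0152 to 0.15 (PHC1); and in tazemetostat -0.0102 to 0.10 (PCGF2). For response differences they were -0.0647 to 0.0913 (PCGF2, E1), -0.13 to 0.0238 (RNF2, F2), and between the clones -0.15 to 0.00617 (CBX7), -0.0349 to 0.13 (PHC1) and -0.0681 to 0.0301 (RING1). For E1 against F2 they were -0.15 to 0.0371 (CBX6), -0.0714 to 0.0855 (BMI1) and -0.0122 to 0.14 (RNF2) in DMSO and -0.11 to 0.00114 (PCGF2) in tazemetostat.

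Outside F2 against WT in DMSO, 3 pairs a comparison were too few to show whether same-numbered libraries were paired. Their deviations correlated between -0.24 and 0.32 in the other comparisons of 2 groups. At most 3 of 6 libraries correlated best with their own number. The replicate block ended 4 calls of the 9 genes there, RNF2 for E1 against WT in DMSO (adjusted p = 0.057), CBX8 for F2 against WT in tazemetostat (0.0533), RING1 in the E1 response difference (0.0537) and RING1 for E1 against F2 in tazemetostat (0.0633), and no other. Depth limited the 9 genes little, as the lowest, CBX7, had 254 normalized counts or more in every library, while AUTS2 ranged from 2.92 to 39.4. With the length of the longest coding transcript in place of all exons, chosen after seeing the data, the CBX7 share in WT DMSO was 6.40% and not 4.53%, CBX7 exceeded CBX8 in E1 DMSO, and in treated E1 PCGF1, at 11.6% of the PCGF sum, exceeded PCGF5, at 10.5%.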
